A study of Ovis aries with 6 samples.

Results

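The 150 genes described here are annotated sheep genes that had higher read shares in testis libraries A15, A16 and D9 than in A13, D10 and D11, a pattern that runs across the 2 diets of the study. They were selected on measured values, as follows. From a count table of 29307 rows, the 20921 rows with Ensembl sheep identifiers were taken, and 10260 of these had a mean of at least 10 CPM (read counts scaled to a common library size by the column totals) and were eligible. For each eligible gene a score was computed as the log2 ratio of the lowest CPM among A15, A16 and D9 to the highest CPM among A13, D10 and D11, after adding 1 to both. The 150 highest scores were kept, which is 1.46% of the eligible genes. The rule names 4 identifiers to be left out. Of these, 2 were under 10 CPM and 2 ranked 1113 and 5850 by the score, so leaving them out removed 0 genes from the 150.

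RNA was extracted with TRIzol from frozen testes of Hu sheep. Libraries A13, A15 and A16 (maintenance replicates 1, 2 and 3) are from sheep fed at maintenance energy. Libraries D9, D10 and D11 (restricted replicates 1, 2 and 3) came from sheep at a 55% energy level. The labels give neither age, nor the time on the diet, nor a statement that each library is 1 animal, so p-values measure the spread between these libraries. The number in a title is not called a replicate number, and replicates were numbered in accession order. Libraries held 13876765 to 20050430 counted reads.

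The testis makes sperm in seminiferous tubules, where germ cells pass from spermatogonia through meiosis to spermatids among Sertoli cells, while Leydig cells between the tubules make androgen. RNA of a whole testis is a sum over these cells. In such bulk samples, more cells of a type and more RNA per cell cannot be told apart. The deposited tables give identifiers without gene names, and 0 of the 150 identifiers occurred in the RefSeq table of sheep genes used here. The function of the members is therefore not described, and the labelled tissue could not be checked against marker genes.

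The member with the highest score, ENSOARG00000004726 (gene length 2451 bases), had 77.6 CPM in A15, 61.9 in A16 and 70.6 in D9. Its level was 24.7 CPM in A13, 22.8 in D10 and 30.2 in D11. The restricted library D9 thus lay between the 2 high maintenance libraries, and the maintenance library A13 between the 2 low restricted ones. The next member, ENSOARG00000011461 (2073 bases), was even within each set, at 172, 175 and 178 CPM in A15, A16 and D9 and at 91.6, 93.0 and 92.7 CPM in A13, D10 and D11. Within the low set its 3 libraries differed far less than the sets did from each other.

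**Figure D1:**
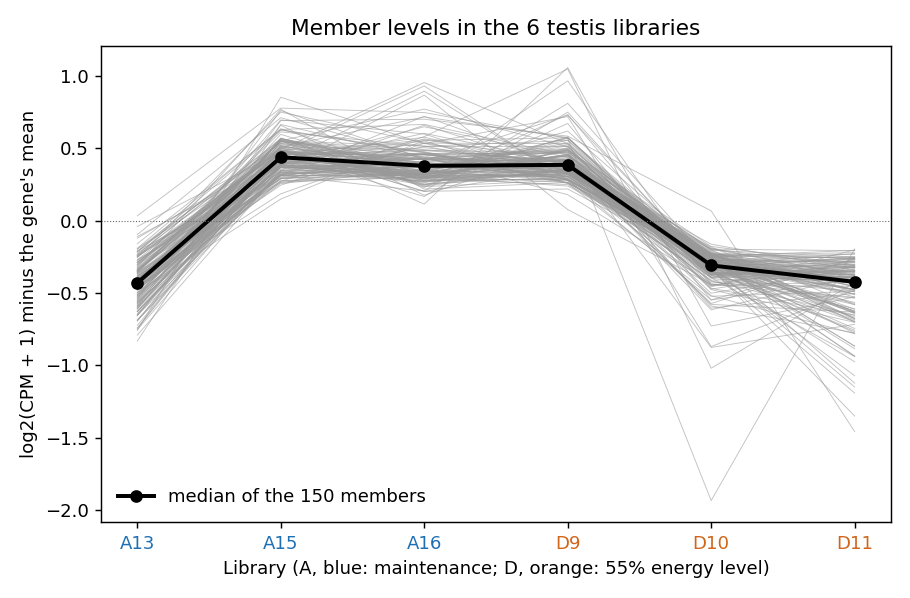
Each grey line is 1 of the 150 members, plotted as log2(CPM + 1) minus the gene's own mean over the 6 libraries; the black line is the median. A15, A16 and D9 sit high and A13, D10 and D11 low because the members were chosen for this. The choice limits how high the grey lines can lie in D10 and D11 but not how low. The line that falls lowest in D10 is ENSOARG00000018713.

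The differences were moderate in size. The ratio of the mean CPM in A15, A16 and D9 to that in A13, D10 and D11 ran from 1.54 to 2.70 with a median of 1.78, and 23 of 150 members reached a ratio of 2. No member was near 0 in the low set as a whole. Scores ran from 0.49 to 1.01 with a median of 0.58. The last gene taken, ENSOARG00000013303, had 46.9, 42.2 and 42.8 CPM in A15, A16 and D9 and 21.3, 29.7 and 29.5 in A13, D10 and D11. The first gene not taken, ENSOARG00000019294, had 36.9, 43.3 and 63.2 CPM against 19.3, 21.5 and 25.9. Both scores round to 0.49, so the boundary is not a gap in the data.

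In each library the 150 genes together took 2.50% of the reads of A15, 2.30% of A16 and 2.30% of D9. They took 1.36% of the reads of A13, 1.44% of D10 and 1.32% of D11. These shares restate the choice of the members. The median member was at 88.1, 90.2 and 86.4 CPM in the former libraries and at 46.7, 54.1 and 49.98 CPM in A13, D10 and D11. Read support was high. Of the 150 members, 145 had at least 100 reads in every library, and the lowest count was 22 reads, for ENSOARG00000018713 in D10.

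Among eligible genes, separation of these 2 sets of libraries was more frequent and larger in the opposite direction. In 2062 eligible genes A15, A16 and D9 all lay above A13, D10 and D11, and in 4224 genes they all lay below. With TMM scaling (edgeR's trimmed mean of M values), the numbers were 2908 and 3720, so the share lying above moved from 32.8 to 43.9%. The 150 genes with the highest opposite score had scores from 1.01 to 1.91. Their smallest score was thus close to the largest score of the members, and 1712 genes had an opposite score at or above the lowest score of the members. Among 1288 unannotated rows (no Ensembl identifier) of at least 10 CPM, 83 or 6.44% reached the score of the last member. The highest of their scores was 1.14, above every member.

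Each library was also left out in turn, 150 annotated genes were chosen by the same score on the other 5, and the library left out was then examined. The division into the 2 sets came from all 6 libraries, so these counts describe the data and are no independent support for the pattern. A15 lay above all of A13, D10 and D11 in 146 of its 150 genes, and A16 and D9 did so in 145 each. D10 lay below all of A15, A16 and D9 in 144 of 150, D11 in 142 and A13 in 140. Over all eligible genes the same was true of 26.1 to 39.5%. Of the 150 members, 118 were chosen again without A15, 85 without A16, 66 without D9, 72 without A13, 65 without D10 and 79 without D11. A13 was nearer to the low than to the high set in 84 of its 150 genes (56%), against 50.9% of all eligible genes. The corresponding counts were 108 for D10, 116 for D11, 129 for A16, 131 for D9 and 143 for A15, against 29.1 to 43.1% of eligible genes.

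Gene length was not used by the rule. The members had a shorter median length than eligible genes, which is given without a test. It was 1488 bases (quartiles 813 and 2649) against 1827 bases (1045 and 3135). Of the members, 62 (41.3%) were longer than the eligible median, and 48 (32.0%) were under 1000 bases, against 23.5% of eligible genes. The 150 opposite genes were longer, with a median of 2406 bases and 17.3% under 1000 bases. The shortest member was ENSOARG00000007123 at 195 bases and the longest ENSOARG00000015124 at 7008 bases. The shift in length was not found in every class of abundance. Members of 30 to 100 CPM had a median of 1138.5 bases against 1869.5 in eligible genes of that class, and the 40 members of 100 to 300 CPM had 1796 against 2230.5 bases. Members of 10 to 30 CPM, however, had 1537.5 against 1571.5 bases, and the 12 members of at least 300 CPM had 3237 against 2385.5 bases. Within the members, score and length were nearly unrelated (Spearman rho 0.07 across 150 genes, which share the same 6 libraries). Of the members' lengths, 78.0% were multiples of 3, as is the case for coding sequence without untranslated parts, against 67.6% of eligible genes and 60.7% of the opposite genes.

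**Figure D2:**
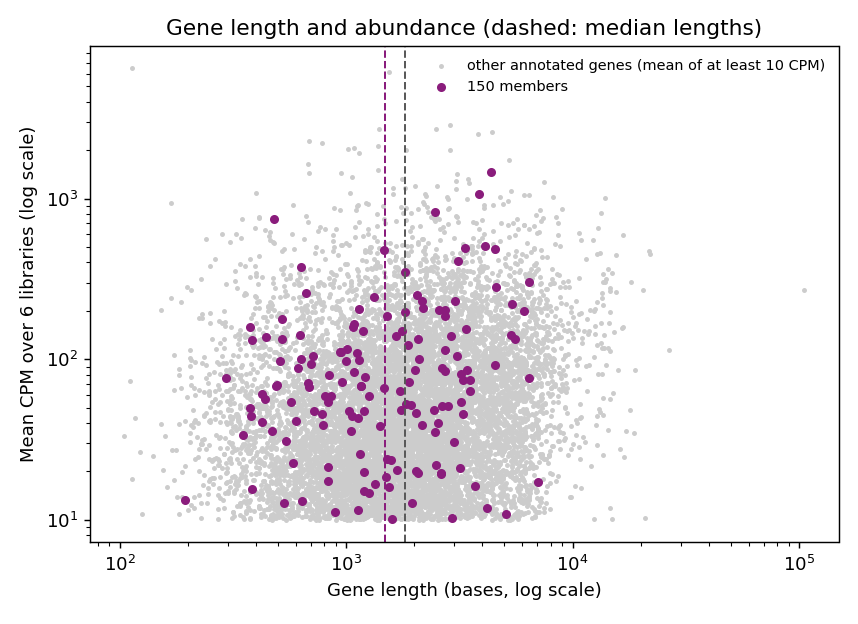
Each point is an annotated gene of at least 10 CPM, with its length in bases and its mean CPM over 6 libraries, both on log scales; purple points are the 150 members. The dashed lines mark the median lengths of 1488 bases for members (purple) and 1827 bases for all eligible genes (grey), and the most abundant member has 1464 CPM where the most abundant eligible gene has 6448 CPM.

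The members were also more abundant than other eligible genes. Their median of the mean level was 68.8 CPM against 43.7, and 52 of 150 (34.7%) reached 100 CPM against 23.5%. For the opposite genes the median was 26.4 CPM. Per length the contrast was wider, with a median of 53.0 FPKM (counts per unit of gene length and of library size) against 24.7 FPKM in eligible genes and 12.6 FPKM in the opposite genes. The most abundant member per length was ENSOARG00000010576, a gene of 483 bases with 1540 ± 390 FPKM (SD, n = 6 libraries of both diets). Its level was 973, 885 and 881 CPM in A15, A16 and D9 and 561, 598 and 566 CPM in A13, D10 and D11. In CPM, the highest was ENSOARG00000003244 (4353 bases), with 2019.6, 1643 and 1662 CPM against 1165, 1153 and 1141 CPM. The lowest level per length was 2.14 FPKM.

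The link with abundance was not particular to the members. Over eligible genes of 10 to 30 CPM, the median log2 difference between the 2 sets was -0.46, on the scale of log2(CPM + 1), A15, A16 and D9 minus A13, D10 and D11. It was -0.16 for 30 to 100 CPM, 0.18 for 100 to 300 CPM and 0.42 for at least 300 CPM. Members made up 0.856, 1.61, 2.09 and 2.40% of these classes. All rows of at least 100 CPM, members included, took 67.0, 65.0 and 65.0% of the reads of A15, A16 and D9 and 59.8, 60.5 and 60.0% of those of A13, D10 and D11. The part of this difference in the members' pattern was not tested. A15 and A16 held 20050430 and 17893995 reads and D9 held 15311385, while A13, D10 and D11 held 15513155, 14885589 and 13876765. The part of depth in the pattern was not tested. Genes under 1000 bases took 20.2, 20.4 and 20.2% of annotated reads in A15, A16 and D9 and 22.0, 20.1 and 19.2% in A13, D10 and D11, so the share of short genes overlapped between the sets.

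How the members varied within each set was partly fixed by the rule. It compared all libraries of each set and scored the lowest of A15, A16 and D9 and the highest of A13, D10 and D11. The ranks and spreads below are therefore not independent of the choice of members. In the high set A15 was the highest library for 71 members, D9 for 47 and A16 for 32. D9 lay above both A15 and A16 in 31.3% of members and 36.7% of eligible genes. It lay below both in 36.7% of members and 21.2% of eligible genes. In the low set D10 was the highest for 80 members, A13 for 37 and D11 for 33. A13 was the lowest for 75 and D11 for 61. For the ranks of libraries other than D9 the share of eligible genes was not computed, so they are not read as a trait of the members. The coefficient of variation over A15, A16 and D9 had a median of 6.62% over the members, and over A13, D10 and D11 it was 11.4%. Eligible genes had 11.9 and 15.04%. A score built on the lowest and the highest value can favour genes with a small spread. The opposite genes, chosen by a score of the same kind, had 31.6 and 15.6%. The part of the score in the members' small spread was not tested.

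Single libraries fell well below the rest of the low set for some members. D11 was under 75% of the lower of A13 and D10 for 17 members (11.3%, against 7.01% of eligible genes), a limit chosen after the values were seen. The same held of A13 for 7 members (4.67%, against 6.92% of eligible genes) and of D10 for 2 (1.33%, against 1.77%). With TMM scaling the number for D11 was 31. This scaling lowers D11 relative to A13 and D10 in every gene. The share of eligible genes was not computed with it, so the rise to 31 is not read as a trait of the members. The lowest ratio belonged to ENSOARG00000002383 (2537 bases), with 28.5 CPM in A13, 27.9 in D10 and 13.3 in D11, beside 50.2, 69.5 and 51.6 in A15, A16 and D9. ENSOARG00000007225, a short gene of 522 bases, had 100, 95.2 and 52.4 CPM in A13, D10 and D11 and 173, 200 and 181 in A15, A16 and D9. ENSOARG00000006825 (633 bases) had 309, 296 and 193 CPM in the low and 513, 486 and 444 CPM in the high set. D11 was thus the lowest of the 6 libraries for each of these genes, by a wide margin.

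D9 also lay below the mean of A15 and A16 in these 17, by little in some of them. The log2(CPM + 1) difference ran from -0.43 (ENSOARG00000003650) to -0.01 (ENSOARG00000018277). D9 did not enter the limit that picked the 17 from among the members, but it did enter the score that chose the members. With that limit set after the values were seen, the counts for D9 are a description and no independent support. It lay below the mean of A15 and A16 in 17 of the 17, in 71 of the other 133 members (53.4%) and in 35.1% of eligible genes. It was the lowest of its set in 12 of the 17 and in 43 of the other 133. The link was not limited to the members. Of the 719 eligible genes in which D11 was equally low, 57.0% had D9 below A15 and A16, against 18.5% of the other eligible genes. The 17 had a median length of 1134 bases, and 8 were under 1000 bases, while the other 133 had a median of 1524 bases with 40 under 1000. The median length of the 719 eligible genes was not computed, so the shorter length is not read as a trait of the 17. ENSOARG00000018713 (1599 bases) was the 1 member that stood far apart in D10, with 1.48 CPM there, 8.70 in A13 and 7.28 in D11. It had 15.3, 14.9 and 13.1 CPM in A15, A16 and D9.

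**Figure D3:**
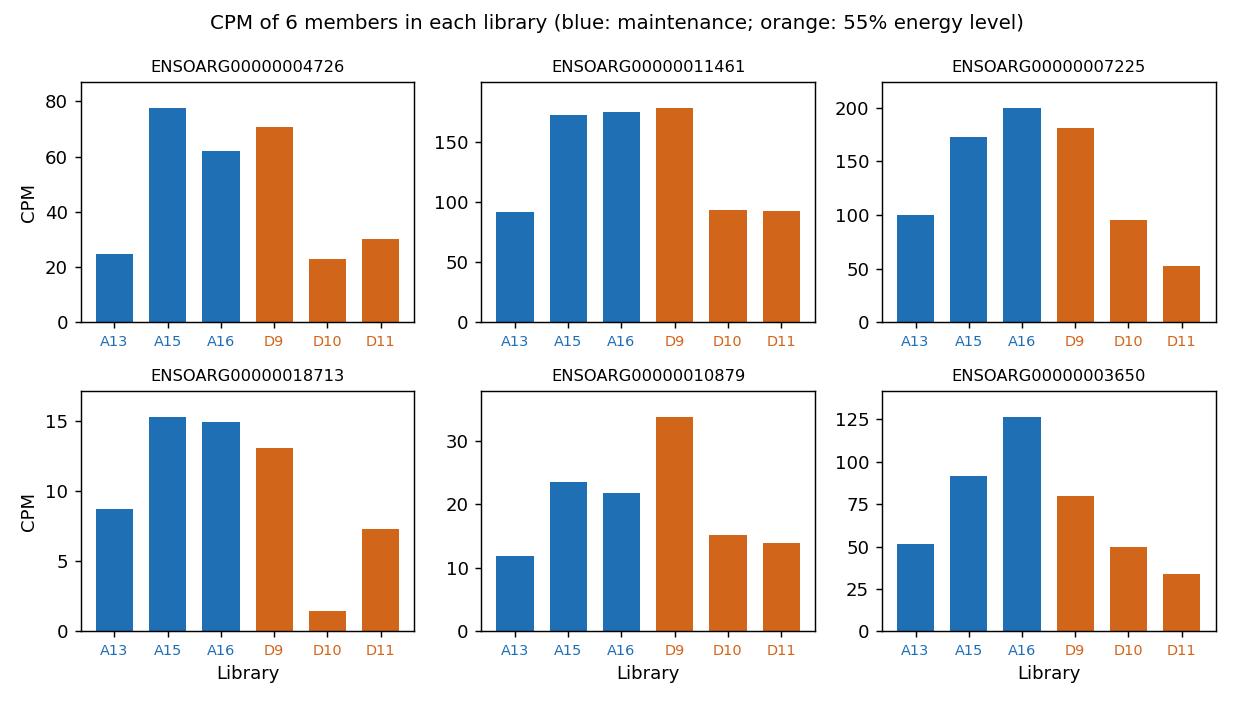
Bars are the CPM of 6 members in each library, with maintenance in blue and the 55% energy level in orange, each panel on its own axis from 0. ENSOARG00000011461 is level within both sets, ENSOARG00000007225 falls to 52.4 CPM in D11 and ENSOARG00000018713 to 1.48 CPM in D10.

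Each set of libraries holds both diets, so restricted and maintenance testes were also set side by side within it. With 1 library of a diet in each set, and sets defined from the data, these are values without a test. D9 minus the mean of A15 and A16 had a median of -0.03 over the members on the log2(CPM + 1) scale, against 0.07 over eligible genes. The mean of D10 and D11 minus A13 had a median of 0.05, against 0.09. The members' medians minus those of eligible genes were -0.11 and -0.04. All 6 libraries entered the score that picked the members, so these differences are not read as an effect of diet. TMM scaling turned the members' median of D10 and D11 against A13 from 0.05 to -0.09. The members' medians minus those of eligible genes stayed the same to 2 decimals. That follows from the scaling, which shifts all genes of a library by nearly the same amount, and nothing is read from it.

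In 37 members D9 lay above A15 and A16 while D10 and D11 lay above A13. This is 24.7% of the members, and 22.5% of eligible genes showed it. The reverse, with the restricted libraries below in both sets, held for 22 members (14.7%), against 8.39% of eligible genes. With TMM scaling these counts were 12 (8%) and 44 (29.3%), against 10.8 and 14.3% of eligible genes. Which of the 2 groups was larger thus depended on the scaling, and the difference from eligible genes was not tested.

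**Figure D4:**
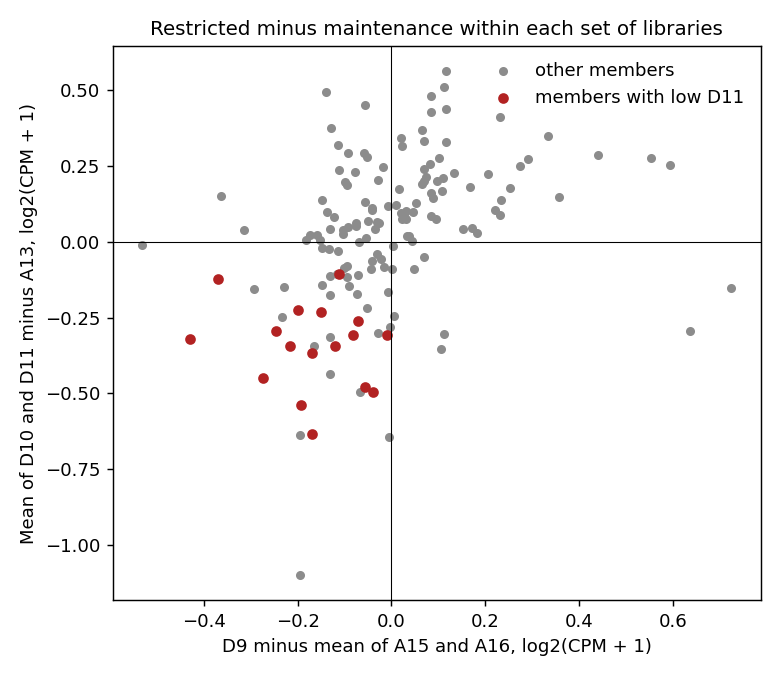
Each point is 1 member; the x axis is D9 minus the mean of A15 and A16 and the y axis the mean of D10 and D11 minus A13, both on the log2(CPM + 1) scale, with values above 0 higher in restricted testes. Red points are the 17 members with low D11, which all lie left of 0 on the x axis; their place on the y axis follows in part from how they were picked.

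Between the diets as labelled, 0 of the 150 members passed an adjusted p of 0.05 in the edgeR quasi-likelihood test, and 0% of the 22323 rows tested did. At an unadjusted p below 0.05 there were also 0 members, where 2.42% of all rows tested were below it. Nothing can be read from this about the members, since the rule puts a high and a low library into each diet and so fixes a wide spread within both. For the same reason the 3 maintenance and the 3 restricted libraries overlap in every member by construction.

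The diet estimates were lower in restricted testes for 149 of 150 members, with a median log2 change of -0.39 and a range from -0.95 to 0.02. Over all rows tested the median was -0.05, and over eligible genes it was -0.03, with 54.5% lower. With 2 of the 3 high libraries on the maintenance diet, a negative estimate largely follows from the choice of members. The median standard error of a member's change was 0.38. Leaving out A13 moved the median to -0.63, and leaving out D9 moved it to -0.66, since either removal leaves the diets less mixed. Without A13, 17 members (11.3%) had an unadjusted p below 0.05, as did 10.7% of all rows tested in that fit. Without D9 there were 36 members (24%), beside 5.92% of all rows tested. In both fits 0 members had an adjusted p below 0.05, and nothing about diet is read from these counts. Leaving out A15 moved the median to -0.15, leaving out A16 to -0.21 and leaving out D11 to -0.19.

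The single member with a higher estimate in restricted testes was ENSOARG00000010879 (1200 bases). It had 11.8, 23.5 and 21.8 CPM in A13, A15 and A16 (19.0 ± 6.34, SD, n = 3) and 33.7, 15.1 and 13.91 CPM in D9, D10 and D11 (20.9 ± 11.1). D9 was the highest and A13 the lowest of the 6 libraries. Its log2 change was 0.02 with a standard error of 0.47 (adjusted p = 0.99998, edgeR quasi-likelihood), and its sign was negative without A13, without D9 and with limma-voom. The smallest p among lower members was that of ENSOARG00000016923 (2041 bases), with 13.7, 24.1 and 35.1 CPM in maintenance and 19.9, 13.6 and 13.7 CPM in restricted libraries. Its log2 change was -0.75 ± 0.40 (standard error, unadjusted p = 0.096, adjusted p = 0.99998, edgeR quasi-likelihood). ENSOARG00000003650 (1893 bases) followed, with 51.4, 91.6 and 126 CPM against 79.7, 49.8 and 33.8 CPM and a log2 change of -0.83 ± 0.44. In both genes A16 was the highest library, and the diets overlapped.

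**Figure D5:**
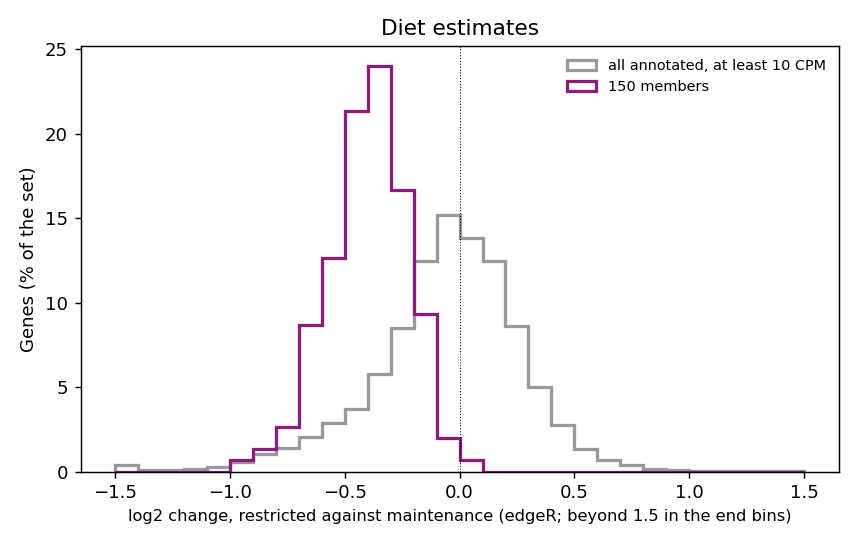
The lines are histograms of the edgeR log2 change, restricted against maintenance, as a percentage of each set in bins of 0.1. The 150 members (purple) centre on -0.39, which their choice largely fixes, and the 10260 eligible genes (grey) on -0.03.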

How the data were processed

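The authors deposited raw read counts per gene and FPKM values (counts per unit of gene length and of library size) for 6 testis libraries, 3 per diet. The submitters' processing notes list TopHat2 and the sheep build Oar_v3.1. Counter, strand setting and annotation release: not given in the sources used here. Every column name equals 1 sample title. Gene lengths were recovered by dividing counts by FPKM, which gave whole bases to within 1.38e-09 for the 27955 rows with a read. The reference table matched 0 identifiers, so no symbol, coordinate or sequence was assigned, and the planned marker lists were not used.

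CPM was the count divided by the column total and put on a common library size. Diets were compared with edgeR 4.0.16 (quasi-likelihood F test, TMM scaling by the trimmed mean of M values, filterByExpr with a minimum count of 10) in R 4.3.3, with Benjamini-Hochberg adjustment over 22323 rows. The script was tested on simulated data. Alternatives were RLE scaling, library size only, no filter, DESeq2 1.42.0, limma-voom (limma 3.58.1), other settings of the rule, and leaving out each library. The members were chosen with earlier results of these data known. Where identifiers have no symbols, the naming rule took up to 2 members in each diet direction by smallest p. Other members and neighbours of the boundary are named because a description turns on them, after their values were seen.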

Additional observations from a re-analysis of the deposited data

How the results depend on the processing

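No paired analysis was possible because the labels give the 2 diets no shared replicate numbers. The count of 0 members past an adjusted p of 0.05 was the same with RLE scaling, library size only, no filter, DESeq2, limma-voom and without each library. Over all rows, edgeR called 0 genes and DESeq2 called 9. Leaving out 1 library gave between 0 and 1 calls over all rows, between 0 and 36 members at an unadjusted p below 0.05 (with between 232 and 2459 of all rows), and between -0.66 and -0.15 for the members' median log2 change. Of the 150 members, 112 remained with TMM scaling, 141 with a pseudocount of 0.1, 131 with a pseudocount of 5 and 118 with a minimum of 1 CPM. A minimum of 100 CPM kept 52, which are all the members of that abundance, and scoring FPKM (mean of at least 1, pseudocount 0.1), which admits other genes, kept 98. Scoring on 5 libraries kept between 65 and 118. The share of members longer than the median annotated gene was 41.3% against eligible genes and 51.3% against all annotated genes with a read, whose median length was 1426 bases against 1827. Scoring on 5 libraries was chosen after seeing the data, as was TMM-scaled CPM except for the count of members kept. With TMM-scaled CPM, 12 members in place of 37 were above and 44 in place of 22 below in both sets. Low D11 was then found in 31 in place of 17, without a share of eligible genes to set beside it. For ENSOARG00000010879 the log2 change was -0.087 with limma-voom, and leaving out 1 library gave between -0.49 and 0.28, negative without maintenance replicate 1 (-0.24) and without restricted replicate 1 (-0.49).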
